A study of Mus musculus with 2 samples.

Results

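A set of 10 genes that guard cells against oxidants, electrophiles and free metal ions was followed across the cell classes of inflamed mouse gingiva. The genes were chosen by symbol: Hmox1, Slc7a11, Nqo1, Gclm, Txnrd1, Srxn1, Prdx1, Gsr and the metallothioneins Mt1 and Mt2, 10 of the 32285 genes in the feature table, and each was present in both tables. The data are 2 Chromium single-cell 3' libraries, 1 from diabetic and 1 from normoglycemic mice, each a pool of cells from 4 mice with no replicate. Diabetes had been induced with streptozotocin, which destroys the insulin-producing cells of the pancreas, and both pools came 2 weeks after the end of 2 weeks of bacterially driven inflammation. The mice of both pools were CD11CCre-/-;FoxoLL, on a mixed C57B6 and FVB background. In them Foxo1 was flanked by loxP sites, without the Cre recombinase that would remove it, and made normal Foxo1 protein per the series description. Sorting removed dead, endothelial and red blood cells, kept CD45+ cells and enriched CD11c+CD45+ cells by 20%. The labels give no age or sex of the mice.

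Many of these genes answer to NRF2 (Nfe2l2), a transcription factor that KEAP1 holds at a low level until oxidants or electrophiles modify KEAP1. NRF2 then pairs with a small MAF protein at antioxidant response elements, sites that the repressor BACH1 can occupy until heme displaces it. Slc7a11 encodes the cystine carrier xCT, which feeds glutathione synthesis. Gclm encodes the modifier subunit of the enzyme that starts that synthesis, and Gsr the reductase that regenerates glutathione. Txnrd1, Srxn1 and Prdx1 serve the thioredoxin and peroxiredoxin branch, Nqo1 reduces quinones, and Hmox1 breaks down heme into biliverdin, iron and carbon monoxide. Mt1 and Mt2 encode small cysteine-rich proteins that bind zinc and copper, and are induced by metals through the factor MTF1 and by glucocorticoids.

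Transcripts were counted by unique molecular identifier (UMI), 78220582 over 10496 diabetic barcodes and 89339733 over 11280 normoglycemic barcodes. After filtering, 10260 diabetic and 10948 normoglycemic cells remained, with medians of 4631.5 and 5302.5 UMIs, and 32 barcodes occurred in both libraries. A cell was placed in a class when it held at least 3 markers of that class and led every other class by at least 2, which placed 82.6% of diabetic and 79.3% of normoglycemic cells. Class names below stand for cells that resembled a type by these markers (neutrophil-like cells, and so on), and a class cut from such a score is a range with cells close to its edge. At least 100 cells in both libraries were found in 7 classes. Neutrophils numbered 4785 diabetic and 4554 normoglycemic cells, of which 387 and 828 lay at the edge of the gate, and their medians were 3488 and 4172.5 UMIs. Macrophages numbered 1067 and 1214 cells, monocytes 848 and 937, and conventional dendritic cells 453 and 633. T cells with an alpha-beta receptor or NK (natural killer) cells, one class, numbered 267 and 681, gamma-delta or type 17 T cells 132 and 167, and B cells 149 and 287. Neutrophils showed a median of 6 of their own markers in the diabetic and 5 in the normoglycemic library, macrophages 7 and 8 and monocytes 6 in both, whereas no single list of another class passed a median of 1 marker in neutrophils or 2 in the other myeloid gates. The best other list of each cell had a median of 3 markers in macrophages of both libraries and in normoglycemic conventional dendritic cells, and 172 of 1067 diabetic and 134 of 1214 normoglycemic macrophages had fewer than 2 such markers. The diabetic library also held 237 fibroblast, 237 mural and 128 epithelial cells, against 18, 5 and 7 in the normoglycemic library, although the CD45 sort should have removed such cells. Cells with Xist and no Y-linked transcript, called female, made up 11.1% of diabetic and 1.85% of normoglycemic neutrophils whose sex could be called, and 34.1% and 7.71% of such monocytes. The share was lower in the diabetic library for conventional dendritic cells, 30.1% and 48.9%, and for B cells, 45.8% and 58.9%, so it differed by class as well as by pool.

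Mt1 and Mt2 lie beside each other on chromosome 8, at 94179082 to 94180327 and 94172664 to 94173568 of GRCm38, with 5513 bases between them. Their promoter sequences are shown because these 2 genes had the most similar profiles of any pair of members. They come from RefSeq (GRCm38.p6, forward strand) and run from 250 bases before the start used there to 30 bases after it. They cover chr8:94172368-94172647 for Mt2 and chr8:94178839-94179118 for Mt1. The gene positions above come from GENCODE, and the starts of the 2 sources differ. The GENCODE start of Mt2, 94172664, lies beyond the end of the printed stretch, and that of Mt1, 94179082, lies within it. Capitals mark matches on either strand to TGCACNC or TGCGCNC, the core letters of the metal response element.
Mt2: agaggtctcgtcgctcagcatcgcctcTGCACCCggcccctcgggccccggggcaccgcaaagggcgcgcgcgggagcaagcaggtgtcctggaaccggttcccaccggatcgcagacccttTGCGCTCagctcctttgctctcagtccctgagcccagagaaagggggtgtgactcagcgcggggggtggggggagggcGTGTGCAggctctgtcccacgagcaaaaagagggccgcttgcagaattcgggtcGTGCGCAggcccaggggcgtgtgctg
Mt1: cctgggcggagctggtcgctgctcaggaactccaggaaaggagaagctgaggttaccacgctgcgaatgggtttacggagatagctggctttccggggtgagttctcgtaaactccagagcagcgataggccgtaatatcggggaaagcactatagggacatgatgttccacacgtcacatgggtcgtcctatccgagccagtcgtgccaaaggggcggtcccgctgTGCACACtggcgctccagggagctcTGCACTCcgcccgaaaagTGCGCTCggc
Mt2 had 4 matches and Mt1 had 3. Among 32851 promoters of 300 bases, from 250 before to 50 after the start, 1.97% held 3 or more of these matches and 25.7% held at least 1. Promoters were found for 8 of the 10 members, all but Hmox1 and Gsr. The letters TGACNNNGC of the antioxidant response element occurred in 12.4% of all promoters, once each in those of Srxn1, Gclm, Prdx1 and Mt2 and in 1 of the 3 Txnrd1 starts. A match of 1 motif overlapped a match of the other in Gclm and in no other member. A match is a string of letters, not a shown binding site.

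The members were first compared between diabetic and normoglycemic cells of each class, the comparison the study was built on. The UMIs of a gene in a class were divided by all UMIs of that class and given per 1000000 (CPM). Because the kit tags transcript ends, CPM does not depend on transcript length. A pair of gene and class was called when the whole exact 95% interval of the diabetic over normoglycemic ratio lay beyond 1.5-fold. These intervals cover counting error only, and no p-value can be given with 1 library per condition. Of the 70 pairs, 5 were called higher and 13 lower in the diabetic library. Over all genes and classes with at least 10 CPM in either library, 2.61% of pairs were called higher and 3.97% lower, against 5 and 13 of the 62 member pairs above that level. The lower calls belonged to Slc7a11 in 7 classes, Hmox1 in 5 and Txnrd1 in 1. The higher calls belonged to Mt2 in 3 classes and Mt1 in 2.

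**Figure D1:**
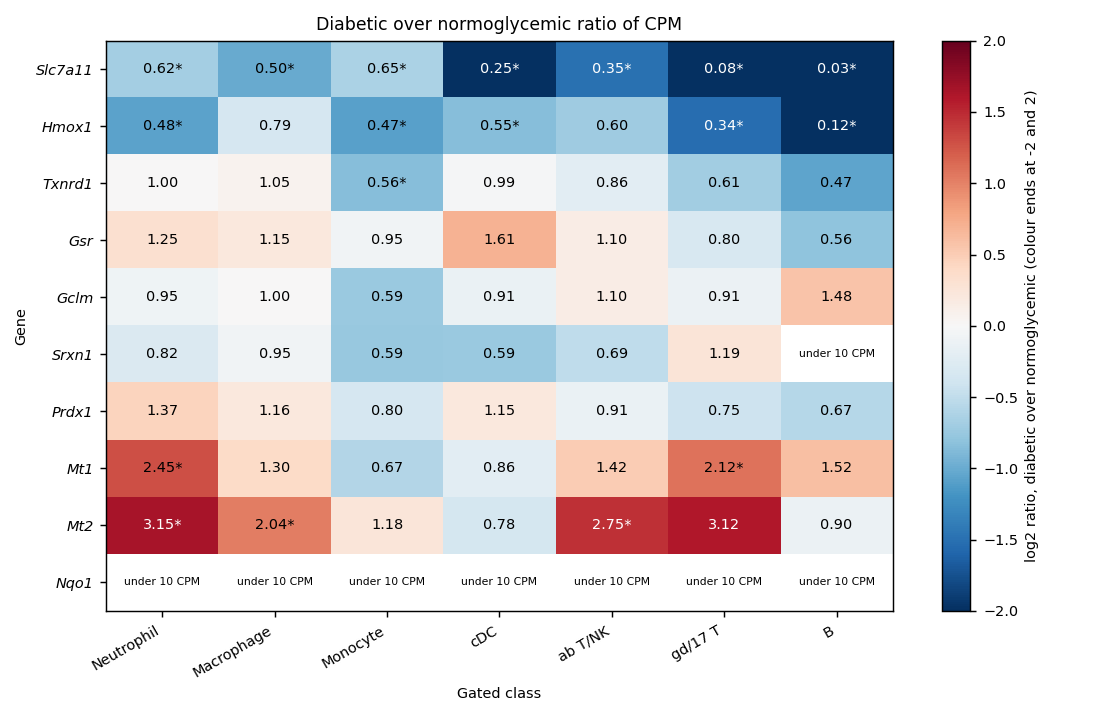
Ratio of CPM, diabetic over normoglycemic, for the 10 genes (rows) in 7 classes (columns; cDC, conventional dendritic; ab and gd, alpha-beta and gamma-delta). Asterisks mark the 18 called pairs; Slc7a11 was below 1 in every class, and Mt2 ran from 0.78 in conventional dendritic cells to 3.15 in neutrophils.

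In neutrophils, 2 of 9 measured members were called higher and 2 lower, beside 13.1% and 8.57% of all genes there. In macrophages it was 1 and 1 of 9, beside 1.33% and 1.84%. In monocytes it was 0 and 3 of 9, beside 2.58% and 3.89%, and in conventional dendritic cells 0 and 2 of 9, beside 1.8% and 3.54%. Alpha-beta T or NK cells had 1 and 1 of 9, beside 1.79% and 2.97%. Gamma-delta or type 17 T cells had 1 and 2 of 9, beside 0.658% and 2.83%, and B cells 0 and 2 of 8, beside 1.55% and 6.27%. The median log2 ratio of the members was -0.63 in monocytes, where that of all genes was -0.0043, and 0.07 in macrophages, where that of all genes was -0.01. In neutrophils it was 0.00 beside 0.20 for all genes, and in B cells -0.68 beside -0.34. Scaling by trimmed means (TMM) moved every log2 ratio by -0.31 in neutrophils and by 0.30 in B cells, and by less than 0.1 elsewhere. After that shift 3.75% of all neutrophil genes were called higher and 16.6% lower, in place of 13.1% and 8.57%, and the members' calls in neutrophils were the same 2 and 2. Member values of those 2 classes are also given after TMM where the shift moves them most, and those of other genes in neutrophils where it ends a call.

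Slc7a11, the cystine carrier, was called lower in each of the 7 classes. It stood at 1696 CPM in diabetic and 2716 CPM in normoglycemic neutrophils, a ratio of 0.625 (95% interval 0.616 to 0.633), or 0.504 after TMM. Monocytes came next, with 713 CPM in diabetic and 1103 CPM in normoglycemic cells (ratio 0.647, 0.627 to 0.667), a call that held under 7 of 16 alternatives. Macrophages had 90.6 and 182.9 CPM (0.495, 0.462 to 0.531). Neutrophils thus carried the highest level in both libraries, and the order neutrophil, monocyte, macrophage had intervals apart in each. After thinning every cell to 1000 UMIs, which kept 4736 of 4785 diabetic and 4519 of 4554 normoglycemic neutrophils, 69.2% of diabetic (exact binomial 95% interval 67.9 to 70.5) and 82.9% of normoglycemic neutrophils (81.7 to 84.0) held a Slc7a11 UMI. Before thinning the shares were 87.8% and 95.7%. In monocytes the thinned shares were 37.5% and 49.5%, and the unthinned ones 66.7% and 81.6%. B cells, used here as a background with median depths of 4358 and 4652 UMIs, had thinned shares of 0.671% and 3.16%. The difference in neutrophils was thus spread over many cells: the top 10% of cells held 29.7% of the Slc7a11 UMIs in the diabetic and 30.5% in the normoglycemic class.

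The lower Slc7a11 of the lymphoid classes had another shape. B cells had 3.94 CPM (4 UMIs) in the diabetic and 146.6 CPM (257 UMIs) in the normoglycemic library. Of the 287 normoglycemic B cells, 12 cells, each with 5 or more Slc7a11 UMIs, held 239 of those UMIs. These 12 cells had a median of 11409 UMIs and 4 neutrophil markers, against 4593 UMIs and 0 neutrophil markers in the other 275. No diabetic B cell had 5 Slc7a11 UMIs. In alpha-beta T or NK cells, 4 diabetic cells held 50 of 59 UMIs and 28 normoglycemic cells held 414 of 458, again with medians of 5 and 4 neutrophil markers. In gamma-delta or type 17 T cells, 17 normoglycemic cells held 304 of 314 UMIs and no diabetic cell reached 5. S100a9, an abundant neutrophil transcript, likewise stood at 293.3 CPM in diabetic and 3917 CPM in normoglycemic B cells. Leaving out cells with 2 or more neutrophil markers, a setting chosen after these values were seen, left 3 diabetic and 19 normoglycemic Slc7a11 UMIs in B cells (ratio 0.251, 0.0476 to 0.853) and ended the call there, in gamma-delta or type 17 T cells (0.357, 0.105 to 0.981), in macrophages (0.626, 0.569 to 0.688) and in monocytes (0.670, 0.641 to 0.700). It kept the calls in conventional dendritic cells, where Slc7a11 was 15.8 CPM in diabetic and 63.1 CPM in normoglycemic cells (ratio 0.2503, 0.205 to 0.303), which became 0.410 (0.319 to 0.523), and in alpha-beta T or NK cells, at 0.237 on 6 and 66 UMIs. Those dendritic cells had summed neutrophil markers of 149.0 CPM in the diabetic and 275.6 CPM in the normoglycemic library. Single neutrophil transcripts differed more: S100a9 was 279.1 and 876.9 CPM there, S100a8 133.0 and 577.2 CPM, and Csf3r 2.53 and 10.4 CPM. Retnlg went the other way, at 6.95 CPM in the diabetic and 1.51 CPM in the normoglycemic dendritic cells. Without cells holding 2 or more markers of any other class, Slc7a11 in dendritic cells was not called. The ratio was then 0.599 (0.202 to 1.61) on 7 diabetic and 13 normoglycemic UMIs. The part of neutrophil RNA in the dendritic ratio was not tested beyond these settings.

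Hmox1, heme oxygenase 1, was lower in diabetic neutrophils and monocytes by about the same ratio. Neutrophils had 216.5 CPM in the diabetic and 455.6 CPM in the normoglycemic library (0.475, 0.458 to 0.493), or 0.383 after TMM. No cluster of neutrophils compared below had a ratio this low, the lowest being 0.669, and Hmox1 was below 1 in only 3 of 5. Monocytes had 333.0 and 704.5 CPM (0.473, 0.453 to 0.493). Macrophages had 471.5 and 593.6 CPM, and their ratio of 0.794 (0.768 to 0.821) was not called. Among the 172 diabetic and 134 normoglycemic macrophages with fewer than 2 markers of another class the ratio lay on the other side, at 1.54 (1.34 to 1.77). Macrophages had the highest Hmox1 of the 7 classes in the diabetic library, and monocytes in the normoglycemic library. A Hmox1 UMI was found in 11.2% of thinned diabetic (10.3 to 12.1) and 22.9% of thinned normoglycemic neutrophils (21.7 to 24.2), in 20.3% and 33.9% of monocytes, and in 27.0% and 27.7% of macrophages. The unthinned shares were 23.2% and 46.8%, 60.4% and 79.1%, and 73.4% and 74.9% in the same order of classes. In thinned B cells the shares were 0.671% and 3.16%. Hmox1 was more unevenly held than Slc7a11 in neutrophils, with 82.8% of its UMIs in the top 10% of diabetic and 64.8% in that of normoglycemic cells. Conventional dendritic cells had 21.5 and 39.0 CPM (0.550, 0.459 to 0.658), a call that held under 8 of 16 alternatives and was 0.900 (0.725 to 1.11) with a gate lead 1 larger and 0.857 (0.430 to 1.66) in thinned cells. The calls in gamma-delta or type 17 T cells (0.341) and B cells (0.120) rested on 17 and 5 diabetic UMIs, and neither held without cells with 2 or more neutrophil markers, when the ratios were 1.56 (0.630 to 3.90) and 0.398 (0.0968 to 1.23).

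**Figure D2:**
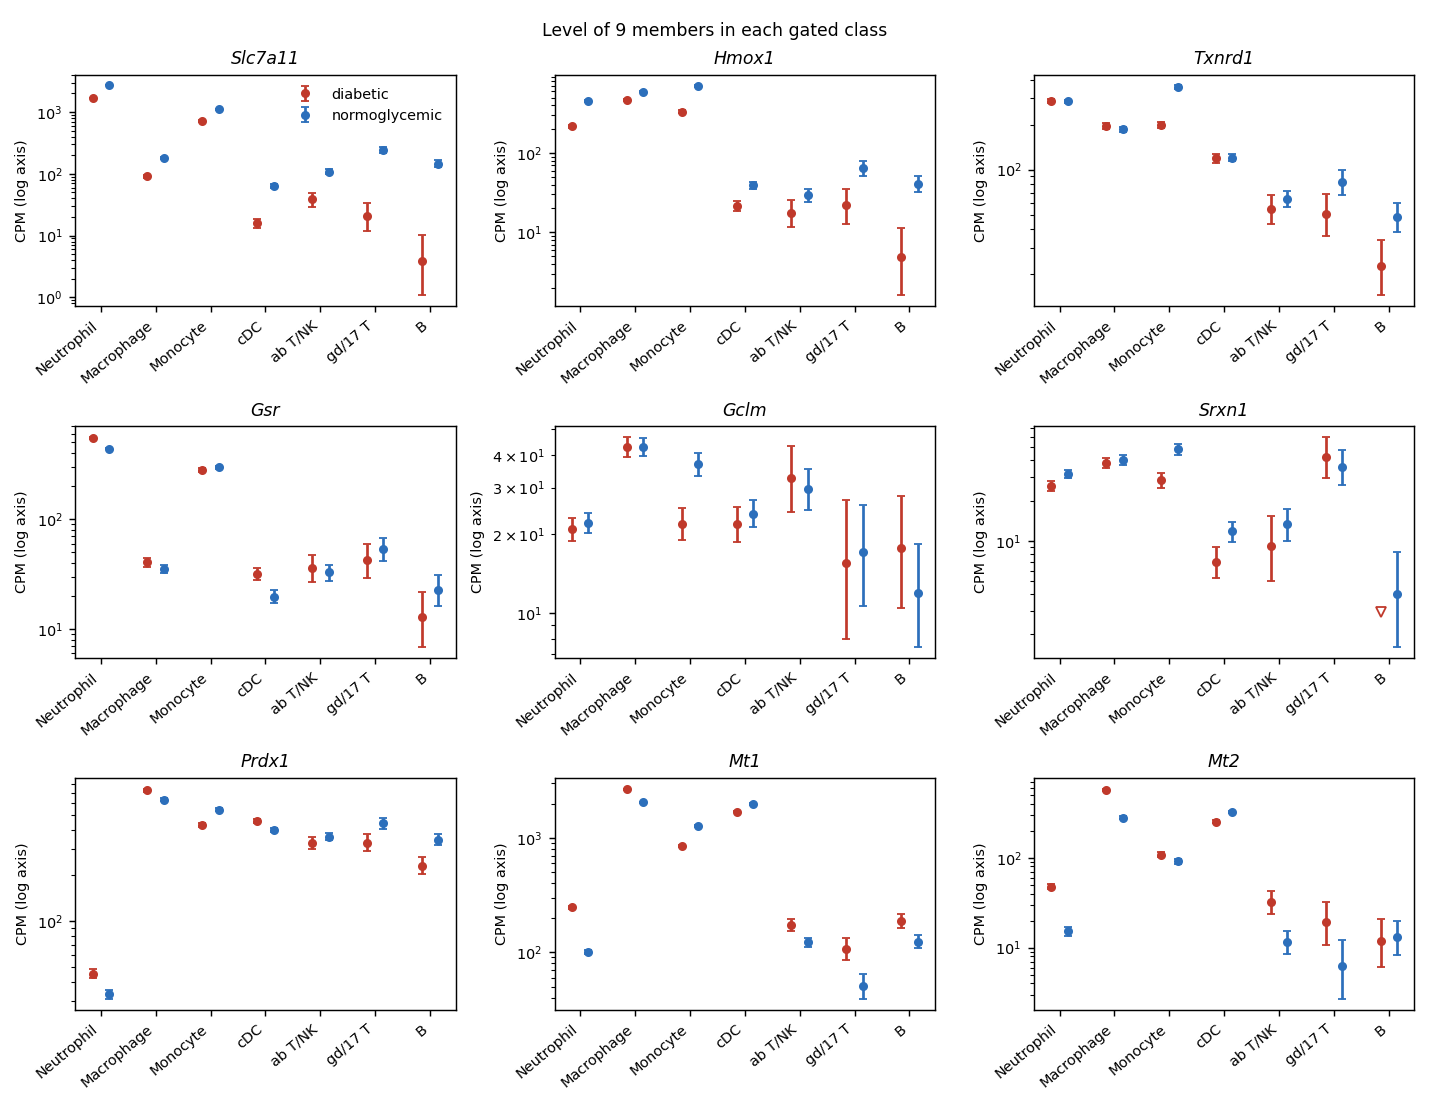
CPM (log axis) of 9 genes in 7 classes, diabetic left of normoglycemic, with exact Poisson 95% intervals; an open triangle marks the limit that 0 UMIs allow. Slc7a11 and Gsr were highest in neutrophils, Prdx1 was lowest there at 45.2 CPM in the diabetic and 33.0 CPM in the normoglycemic library, and Mt1 was highest in macrophages at 2661 and 2045 CPM.

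Of the remaining glutathione genes, Gsr, glutathione reductase, was a gene of neutrophils and monocytes. It stood at 551.2 CPM in diabetic and 440.3 CPM in normoglycemic neutrophils (1.252, 1.22 to 1.29), which became 1.01 after TMM. Monocytes had 280.5 and 295.9 CPM (0.948, 0.899 to 0.999), and the other 5 classes between 12.8 and 53.5 CPM. Gclm was low throughout, from 15.5 to 43.0 CPM in diabetic and 11.98 to 42.8 CPM in normoglycemic classes, and no pair was called. Its lowest ratio was in monocytes, 21.9 against 36.8 CPM (0.594, 0.498 to 0.707). Gsr and Gclm were thus not called in neutrophils, where Slc7a11 was.

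In the thioredoxin branch, Txnrd1, thioredoxin reductase 1, was lower in diabetic monocytes, with 198.4 CPM against 357.0 CPM in normoglycemic ones (0.556, 0.525 to 0.588). In neutrophils it was 288.3 and 287.4 CPM (1.003, 0.967 to 1.04), or 0.809 after TMM, and in macrophages 195.8 and 185.9 CPM (1.05, 0.997 to 1.11). Srxn1, sulfiredoxin, had 28.4 CPM in diabetic and 48.3 CPM in normoglycemic monocytes (0.589, 0.504 to 0.685), whose interval reached past the 1.5-fold bound. Prdx1, peroxiredoxin 1, was abundant in every class except neutrophils. It had 726.0 and 628.0 CPM in macrophages (1.16, 1.12 to 1.19) and 429.8 and 540.6 CPM in monocytes (0.795, 0.763 to 0.828), with no call in any class. Monocytes were the class in which the intervals of every member except Mt2 and Nqo1 lay below 1.

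Nqo1, the quinone reductase, was close to absent from the leukocytes. It did not exceed 1.59 CPM in any of the 7 classes, where diabetic neutrophils held 13 UMIs over 4785 cells and normoglycemic neutrophils 36 over 4554. Diabetic monocytes, and both libraries' gamma-delta or type 17 T cells and B cells, held no UMI, which for diabetic monocytes allows up to 0.333 CPM. Nqo1 reached 44.0 CPM in the 128 epithelial cells of the diabetic library. In neutrophils the ratio was 0.436 (0.212 to 0.843) and was not called, and with classes taken from clusters it was 0.235 (0.119 to 0.427), on 13 and 73 UMIs, and was called lower. In the other classes the counts were too low for a difference to be read.

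The metallothioneins were higher in diabetic neutrophils, and Mt2 in diabetic macrophages, although Mt1 in neutrophils stayed at the level of a background class, as given below. Mt1 stood at 248.1 CPM in diabetic and 101.2 CPM in normoglycemic neutrophils (2.45, 2.33 to 2.58), or 1.98 after TMM. Mt2 stood at 47.8 and 15.2 CPM there (3.15, 2.78 to 3.58), or 2.54 after TMM. In macrophages, which held the most Mt1 of the 7 classes, Mt1 was 2661 CPM in diabetic and 2045 CPM in normoglycemic cells (1.30, 1.28 to 1.32, not called). Mt2 was 570.7 and 279.6 CPM (2.04, 1.96 to 2.12). An Mt2 UMI was found in 26.5% of thinned diabetic (23.8 to 29.3) and 14.1% of thinned normoglycemic macrophages (12.1 to 16.2), and in 55.8% and 34.0% before thinning. In thinned B cells it was 0 of 149 diabetic cells, which allows a share of up to 2.01% (3 cells of the total), and 0.351% of normoglycemic ones. For Mt1 the thinned shares were 64.3% and 58.5% of macrophages, where the unthinned ones were 93.1% and 91.8%. In neutrophils the thinned shares of Mt1 were 12.2% (11.2 to 13.1) in the diabetic and 5.71% (5.05 to 6.43) in the normoglycemic library, and 31.8% and 19.5% before thinning. B cells had thinned shares of 10.7% (6.26 to 16.9) and 5.61% (3.24 to 8.96), so Mt1 in neutrophils was not above this background in either library. For Mt2, neutrophils had thinned shares of 3.06% and 1.13%. Beside the higher Mt1 and Mt2 of diabetic neutrophils, summed macrophage markers there were 296.2 CPM in the diabetic and 151.3 CPM in the normoglycemic library. Summed fibroblast markers were 102.7 and 53.5 CPM in those neutrophils, with 0 and 1 of 8 fibroblast markers at 0, and 0 macrophage markers at 0 in either. Diabetic fibroblasts held 8142 CPM of Mt1 and 3470 CPM of Mt2. The part of such RNA in the neutrophil ratios was not tested.

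Monocytes and conventional dendritic cells did not share the direction of Mt1. Monocytes had 850.4 CPM in the diabetic and 1270 CPM in the normoglycemic library (0.669, 0.651 to 0.689), and dendritic cells 1702 and 1980 CPM (0.860, 0.842 to 0.878). Mt2 was 107.7 and 91.1 CPM in monocytes (1.18, 1.08 to 1.30) and 252.5 and 322.2 CPM in dendritic cells (0.784, 0.742 to 0.828). The calls of Mt2 in alpha-beta T or NK cells (2.75, 1.81 to 4.18) and of Mt1 in gamma-delta or type 17 T cells (2.12, 1.52 to 2.99) rested on 49 and 83 diabetic UMIs, against 49 and 65 normoglycemic UMIs. Without cells with 2 or more neutrophil markers neither call held, at 1.72 (1.02 to 2.86) and 1.96 (1.39 to 2.79). Mt1 in B cells came from few cells: 3 of 149 diabetic cells held 129 of 191 UMIs and 3 of 287 normoglycemic cells held 153 of 217. Its ratio in B cells, 1.52 (1.24 to 1.85), was called at 3.56 (2.72 to 4.68) without cells with 2 or more neutrophil markers and at 1.88 (1.54 to 2.29) after TMM.

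The gates with under 100 cells in a library give levels alone. In mast cells, 46 diabetic and 40 normoglycemic, Mt1 was 2605 CPM (2343 to 2889) and 922.1 CPM (781.3 to 1081), and Mt2 542.7 and 84.9 CPM. Mature dendritic cells, 46 and 52, had 774.6 and 361.3 CPM of Mt1, 97.3 and 289.1 CPM of Slc7a11, and 8.38 and 46.8 CPM of Hmox1. Among cells that are not leukocytes, diabetic Schwann cells had 8346 CPM of Mt1, mural cells 5841 CPM and epithelial cells 2596 CPM. The 18 normoglycemic fibroblasts had 7771 CPM of Mt1 and 3591 CPM of Mt2, close to the 8142 and 3470 CPM of the 237 diabetic ones. Gclm was highest in epithelial cells, at 211.4 CPM in the diabetic library. Diabetic epithelial cells had 14.3 CPM of Hmox1 and fibroblasts 100.03 CPM, against 216.5 CPM in diabetic neutrophils and 471.5 CPM in diabetic macrophages.

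In neutrophils, macrophages, monocytes and conventional dendritic cells, an Mt2 UMI was more frequent among cells with an Mt1 UMI than among cells without one. B cells held too few to compare: in each library 0 of 16 thinned cells with an Mt1 UMI held an Mt2 UMI (0 to 20.6%). No thinned diabetic B cell held an Mt2 UMI at all. Among thinned diabetic macrophages, 37.8% of cells with an Mt1 UMI and 6.18% of those without one held an Mt2 UMI. In normoglycemic macrophages the shares were 22.2% and 2.63%. Slc7a11 and Hmox1 did so in monocytes, where Slc7a11 was found in 53.2% of diabetic cells with and 33.5% of those without a Hmox1 UMI, and in 64.6% and 41.8% of normoglycemic ones. In diabetic neutrophils the corresponding shares of Slc7a11 were 63.3% and 69.9%, so the overlap seen in monocytes was not seen there. Cells of unequal type within a gate share both genes in such counts, and no test was made.

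Over 19 sums of classes and libraries, the profile of Mt1 was closest to that of Mt2 (Pearson r of log2 CPM = 0.966), then to Tceal8 (0.940) and Ctnnd1 (0.932). Slc7a11 was closest to Arg2 (0.968), which encodes a mitochondrial arginase, then to Fpr2 (0.955), a formyl peptide receptor, and Dgat2 (0.954). Hmox1 was closest to Sdcbp (0.935), Ninj1 (0.928) and Sat1 (0.926), Txnrd1 to Tnfaip2 (0.965), Gabarap (0.958) and Mtmr6 (0.944), and Gsr to Slc27a4 (0.958), Fbxl5 (0.949) and Grina (0.945). Prdx1 was closest to Psmd6 (0.969), Rnf7 (0.965) and Hdgf (0.964), and Gclm to Cdo1 (0.888), Sbsn (0.860) and H19 (0.853). Nqo1 and Srxn1 did not reach 50 CPM in any sum and were not matched. These sums share libraries and depth, and the correlations describe them only. Between members, Slc7a11 and Gsr had r = 0.856 and Hmox1 and Txnrd1 0.869, whereas Slc7a11 and Prdx1 had -0.490.

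The neutrophils were split to see whether a shift between kinds of neutrophil went with these ratios. In each of 5 splits, by Retnlg, by chemokine genes (Ccl3, Ccl4, Cxcl2), by interferon-induced genes (Isg15, Ifit1, Ifit3, Rsad2), by granule genes (Ltf, Camp, Ngp, Lcn2) and by osteopontin (Spp1), the 25% of cells with the highest level over both libraries were set apart from the rest. Retnlg-high cells were far more frequent in the diabetic class, 1872 of 4785 cells against 463 of 4554. Within the 10 resulting parts, Slc7a11 had ratios from 0.605 to 0.700 and Hmox1 from 0.373 to 0.627, below 1 in 10 of 10. Mt1 ran from 1.396 to 3.45 and Mt2 from 1.52 to 5.56, above 1 in 10 of 10. These splits overlap and use the same cells. Clusters drawn without the members separated the libraries further, with 1596 diabetic and 64 normoglycemic neutrophils in cluster 2, 361 and 1 in cluster 22, 120 and 1302 in cluster 5, and 29 and 615 in cluster 10. Clusters 0, 1, 3, 4 and 5 held at least 100 neutrophils of both libraries, a setting chosen after the cluster sizes were seen. Within them Slc7a11 had ratios from 0.622 to 0.728, Mt1 from 1.61 to 4.08 and Mt2 from 1.61 to 3.53. Hmox1 was below 1 in 3 of these 5 clusters, the lowest being 0.669 (0.576 to 0.777) in cluster 1, and above 1 in cluster 0 (1.15, 1.01 to 1.30) and cluster 5 (1.61, 1.48 to 1.76). Hmox1 in cluster 5 was 1104 CPM in diabetic and 684.2 CPM in normoglycemic cells. That cluster held 5294 of the 10312 Hmox1 UMIs of normoglycemic neutrophils and 568 of the 4055 of diabetic ones. Slc7a11, Mt1 and Mt2 thus kept their direction in each cluster compared, and Hmox1 did not. For Mt2, however, the interval held 1 in cluster 1 (1.61, 0.941 to 2.92) and in cluster 5 (1.95, 0.901 to 3.79). Hmox1 was higher in granule-high cells than in the rest in both libraries, and Mt1 was lower in Retnlg-high cells than in the rest in both.

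**Figure D3:**
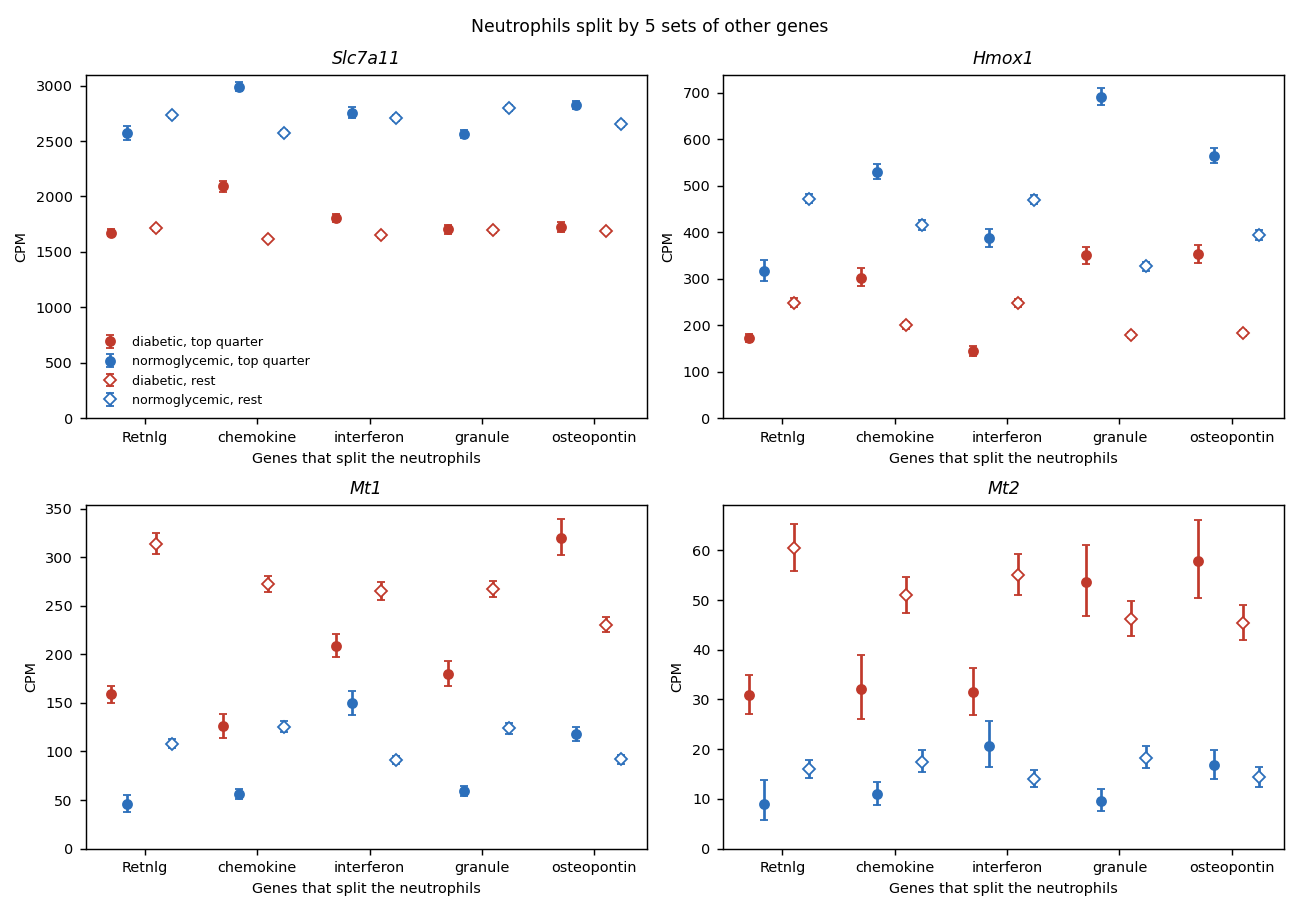
CPM of 4 genes in neutrophils split by 5 sets of other genes, diabetic (red) left of normoglycemic (blue), with filled points for the top 25%, open points for the rest and exact Poisson 95% intervals. Diabetic points lie below normoglycemic ones for Slc7a11 and Hmox1 and above them for Mt1 and Mt2 in all 10 parts.

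Within macrophages, split the same way, the metallothioneins were highest in the 25% with most Lyve1, Folr2 and Cd163, markers of resident macrophages, at 4287 CPM of Mt1 in diabetic and 3521 CPM in normoglycemic cells. Hmox1 was highest there in the diabetic library, whereas in the normoglycemic library the lipid-associated 25% had more, 1077 CPM, against 657.7 CPM in the diabetic one. The resident 25% had 883.4 CPM of Hmox1 in diabetic and 797.5 CPM in normoglycemic cells (1.11, 1.05 to 1.17), whereas the rest had 347.4 and 541.7 CPM (0.641, 0.615 to 0.669). Mt2 was higher in diabetic cells in 8 of 8 macrophage parts, from 1.32 to 2.28, and Slc7a11 lower in 8 of 8, from 0.297 to 0.918. The 25% with most MHC class II transcripts held 162 diabetic and 408 normoglycemic cells and had the lowest Hmox1 ratio of the 8, 0.425 (0.370 to 0.486). These parts overlap and use the same cells. Among macrophages with fewer than 2 markers of another class, Slc7a11 was 0.689 (0.474 to 1.003) and not called. S100a9 was 573.3 CPM in diabetic and 1321 CPM in normoglycemic macrophages, whereas Retnlg was 19.1 and 10.2 CPM. The part of neutrophil RNA in the macrophage Slc7a11 ratios was not tested further. In monocytes, the 25% with most Arg1, Nos2 and Inhba, genes of inflammatory monocyte-derived cells, had 1398 CPM of Slc7a11 in diabetic and 1769 CPM in normoglycemic cells (0.790, 0.755 to 0.827). The rest had 479.8 and 869.5 CPM (0.552, 0.529 to 0.576). Hmox1 had ratios of 0.471 and 0.476 in these 2 parts of the monocytes.

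The share of female cells differed between the pools within classes, so the ratios were also taken within cells called male and within cells called female. In male cells, Hmox1 was 0.387 in neutrophils, 0.644 in macrophages and 0.345 in monocytes. In female cells the same ratios were 1.07, 1.18 and 1.43. Slc7a11 was 0.627 in male and 0.931 in female neutrophils, 0.463 and 0.712 in male and female macrophages, and 0.649 and 2.86 in male and female monocytes. Txnrd1 in monocytes was 0.493 in male and 1.49 in female cells. Among cells with a sex call, Hmox1 in these classes was thus below 1 in male cells only. The same held for Slc7a11 and Txnrd1 in monocytes. The female ratios lay above 1, although the interval of Hmox1 in female neutrophils (0.831 to 1.39) held 1. Cells without a sex call entered neither ratio. Of 4785 diabetic neutrophils 1811 were called male and 225 female, and of 4554 normoglycemic ones 2434 and 46. The difference between the sexes was not tested. Female cells were few: 225 diabetic and 46 normoglycemic neutrophils, and 212 and 53 monocytes, from an unknown number of mice. Of the female monocytes, 22.2% of diabetic and 1.89% of normoglycemic cells (1 of 53) lay in the 25% with most Arg1, Nos2 and Inhba, whereas the shares of male monocytes were 27.4% and 26.2%. Male diabetic monocytes had 244.8 CPM of Hmox1 and male normoglycemic ones 709.5 CPM, and female diabetic monocytes had 505.1 CPM and female normoglycemic ones 354.3 CPM. Mt1 in monocytes was 0.677 in male and 1.67 in female cells, whereas in neutrophils and macrophages both metallothioneins had ratios above 1 in both sexes. Mt1 in neutrophils was 2.21 in male and 2.58 in female cells, and Mt2 in macrophages 2.77 and 1.71. Mt2 in neutrophils was 4.05 in male and 1.23 in female cells. The ratio in female cells was not called, and its interval (0.802 to 1.95) held 1. In the normoglycemic pool, 1.85% of neutrophils but 44.4% of macrophages with a sex call were female. Its 46 female neutrophils held 56 Prdx1 UMIs and its 2434 male ones 398, at median depths of 4583 and 4488.5 UMIs. The 225 diabetic female neutrophils held 650 Mt1 UMIs and the 1811 male ones 1777, at medians of 4655 and 3604 UMIs. The part of RNA from other cells in the sex calls and in these ratios was not tested. Whether the sexes differ, or the mice that happened to be of each sex, cannot be told apart.

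**Figure D4:**
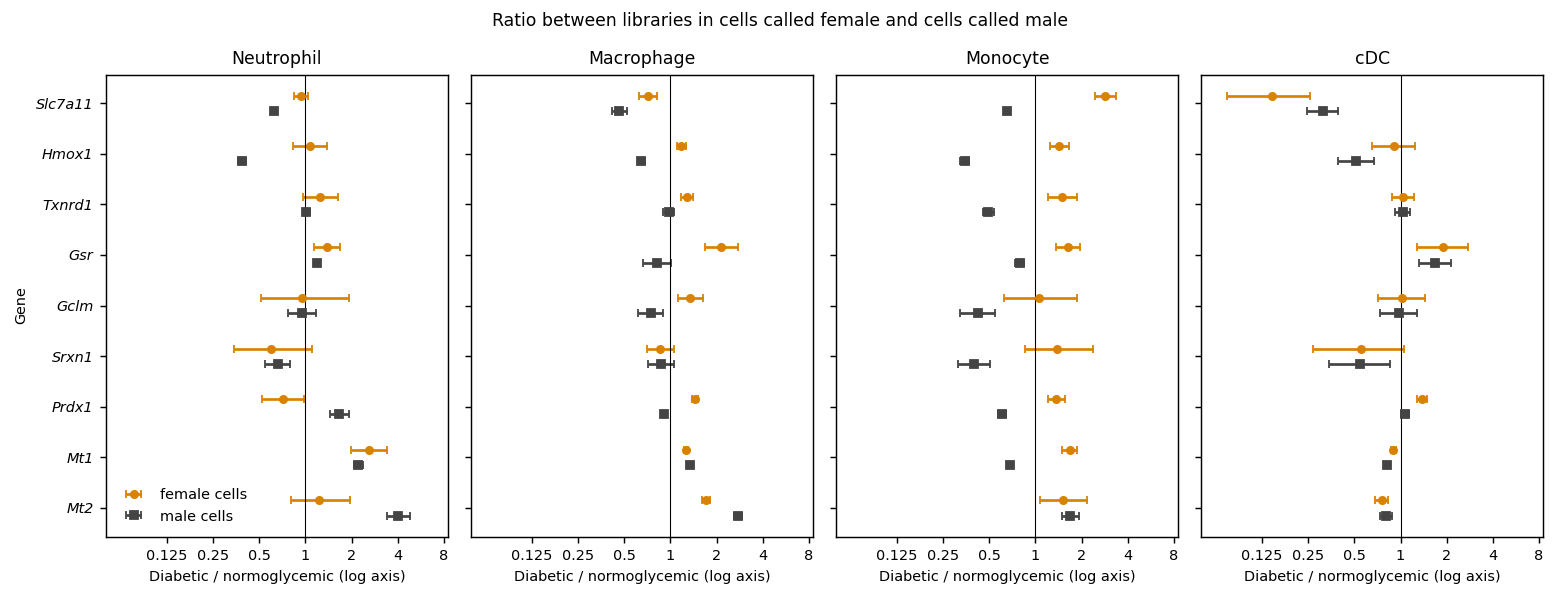
Diabetic over normoglycemic ratio (log axis) of 9 genes in cells called female (orange circles) and male (dark squares) of 4 classes, with exact 95% intervals for counting error. In monocytes Hmox1 lies at 0.345 in male and 1.43 in female cells and Slc7a11 at 0.649 and 2.86, and Mt1 in neutrophils lies above 2 in both.

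Other genes of the same pathways were taken from lists of which every member was counted. Over the 12 lists, 12 genes were called higher and 13 lower of 97 list entries in neutrophils, beside 13.1% and 8.57% of all genes. After TMM these became 1 and 21, beside 3.75% and 16.6%. The higher calls of neutrophils below thus rest on the scaling by UMI total except where TMM is named. All-gene shares were 1.33% and 1.84% in macrophages, 2.58% and 3.89% in monocytes, and 1.8% and 3.54% in conventional dendritic cells. The list counts here and in the paragraphs that follow stand beside these shares. No list was tested against them. Of the genes of NRF2 and its partners, 3 of 8 measured in neutrophils were lower in diabetic cells and 0 higher, with a median log2 ratio of -0.52, and 4 after TMM. In monocytes 3 of 9 were lower, in conventional dendritic cells 2 of 10 and in macrophages 2 of 10, with 0 higher in each and medians of -0.41, -0.44 and -0.27. Sqstm1, which encodes the KEAP1-binding autophagy receptor p62, was 198.8 CPM in diabetic and 490.7 CPM in normoglycemic neutrophils (0.405, 0.390 to 0.421), and 203.8 and 408.1 CPM in monocytes (0.499, 0.473 to 0.528). The others called were the small MAF genes: Mafg and Mafk in neutrophils, and Maff with Mafk in macrophages and monocytes. Nfe2l2 and Bach1 were not called in these 4 classes.

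The heme and iron list had 2 higher and 1 lower of 12 genes in neutrophils, where 13.1% and 8.57% of all genes were called. After TMM it had 0 and 2, beside 3.75% and 16.6%. It had 1 and 1 of 18 in macrophages and 0 and 3 of 14 in monocytes. Ftl1, ferritin light chain, was 3918 CPM in diabetic and 6786 CPM in normoglycemic neutrophils (0.577, 0.572 to 0.582) and 3713 and 5688 CPM in monocytes (0.653, 0.644 to 0.662). Cd163, the hemoglobin and haptoglobin scavenger receptor, was 310.3 and 178.8 CPM in macrophages (1.74, 1.65 to 1.82). The iron carriers Slc11a1 and Slc11a2 had ratios of 0.555 and 0.516 in monocytes. Of zinc and copper genes, 1 was higher and 1 lower of 4 in neutrophils (0 and 2 after TMM) and 0 and 0 of 10 in macrophages. The part of metals in the higher Mt2 of macrophages was not tested. In monocytes 0 were higher and 2 of 10 lower, the zinc importers Slc39a14 (0.525) and Slc39a1 (0.590).

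The glutathione list had 1 higher and 1 lower of 7 genes in neutrophils, 3 and 0 of 12 in macrophages and 2 and 1 of 11 in monocytes. Slc3a2, the heavy chain that partners the Slc7a11 protein, was 182.5 CPM in diabetic and 303.9 CPM in normoglycemic monocytes (0.601, 0.566 to 0.638) and was not called in neutrophils without TMM. Gpx1, a glutathione peroxidase, was 1086 and 671.6 CPM in monocytes (1.62, 1.57 to 1.67), and Gpx4, which reduces lipid peroxides, 126.7 and 73.5 CPM in neutrophils (1.72, 1.62 to 1.84), which became 1.39 (1.30 to 1.48) after TMM and was no longer called. After TMM the list had 0 higher and 3 lower in neutrophils, Slc3a2 among them (0.558). The wider thioredoxin list had 0 calls among 10 genes in neutrophils and 15 in macrophages, and 1 higher of 12 in monocytes, Selenop (1.70). Of 4 genes that remove superoxide and peroxide, 2 were higher in neutrophils, Ucp2 (1.57) and Park7 (1.90), and 1 lower, and after TMM 0 and 1, while macrophages and monocytes had 0 calls of 6. Sod2, mitochondrial superoxide dismutase, was 366.3 CPM in diabetic and 662.2 CPM in normoglycemic neutrophils (0.553, 0.537 to 0.569). The NADPH oxidase list, the source of superoxide in phagocytes, had 0 calls among 7 genes in neutrophils (1 lower, Ncf1, after TMM), 8 in macrophages and 7 in monocytes. The NADPH supply list had 1 higher of 5 in neutrophils (Tkt, 1.84, or 1.48 and not called after TMM), 1 higher of 8 in monocytes (Idh1, 1.78) and 0 calls of 8 in macrophages.

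Lists of other inducers of these genes were counted the same way and stand beside the same shares of all genes. Of 9 glucocorticoid-responsive genes in neutrophils, 3 were higher in diabetic cells, Cebpd (1.86), Errfi1 (1.68) and Fkbp5 (1.86), and 0 lower, but after TMM they were 1.502, 1.35 and 1.503 and none of the 3 was called, whereas 0 of 10 were called in macrophages and 0 of 9 in monocytes. Of 10 hypoxia genes in neutrophils, 2 were lower, Egln3 (0.403) and Ndrg1 (0.327), and in monocytes 1 of 10, Ndrg1 (0.468). The integrated stress response list had 0 higher and 2 lower of 5 in neutrophils, 0 and 0 of 5 in macrophages and 0 and 1 of 5 in monocytes. Atf4, the factor of the integrated stress response and a known inducer of Slc7a11, was 52.7 CPM in diabetic and 94.9 CPM in normoglycemic neutrophils (0.555, 0.514 to 0.598). It was 132.6 and 252.2 CPM in monocytes (0.526, 0.491 to 0.563). Genes known to respond to tissue dissociation moved both ways in neutrophils, with Fos at 1410 and 545.4 CPM (2.58, 2.53 to 2.64), Fosb at 1.89 (1.52 and not called after TMM), Jun at 0.578 and Atf3 at 0.604, and 0 of 16 were called in macrophages or monocytes. The part of dissociation in the neutrophil ratios was not tested.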

How the data were processed

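Single-cell RNA was measured in 2 libraries, 1 diabetic and 1 normoglycemic. The authors deposited raw UMI counts per gene and cell, made with Cell Ranger, with mm10 as the genome; the version is 6.0.2 per the submitters' processing notes and 4.0.0 per the file headers. The lowest barcode held 500 UMIs, and 4 features that count antibody tags were left out of all sums.

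Cells with at least 500 UMIs, 200 genes and at most 15% mitochondrial UMIs were kept, which removed 236 diabetic and 332 normoglycemic barcodes. Classes came from 18 lists of 8 or 9 markers, among them Csf3r, Cxcr2 and Retnlg for neutrophils, C1qa, Mrc1 and Adgre1 for macrophages and Ly6c2, Ccr2 and Chil3 for monocytes. Doublets were not called. Removing the 8% deepest cells and removing cells with markers of another class were the alternatives. UMIs were summed by class, and ratios carry exact conditional binomial 95% intervals, levels exact Poisson and shares exact Clopper-Pearson intervals, all for counting error only. The limit for a share or level of 0 is 3 counts over the total. Log2 ratios used a pseudocount of 0.5 counts. Thinning drew 1000 UMIs per cell once. The interval calls were tested on simulated Poisson counts, which hold counting error only and no variation between mice or pools. Cells were called female with Xist and none of Ddx3y, Eif2s3y, Kdm5d and Uty, and male with one of these and no Xist. The promoter matches were searched in RefSeq sequences of GRCm38.p6, and gene positions come from GENCODE on the same build. Tald1 and Ero1a were not matched in the feature table under those names.

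The members, the 13 gene lists and the splits were chosen with earlier results of these data known. All members were described, and of other lists at most 3 genes per class and direction with the highest CPM among those called, here for neutrophils, macrophages, monocytes and conventional dendritic cells. Python 3.11.15, numpy 2.4.6, scipy 1.17.1, pandas 2.3.3, scanpy 1.11.5 (clusters), matplotlib 3.10.9 and edgeR 4.0.16 (TMM) were used.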

Additional observations from a re-analysis of the deposited data

Results flagged for a closer look

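Mt1 pointed in opposite directions in myeloid classes of the same libraries, with a ratio of diabetic over normoglycemic CPM of 2.45 in neutrophils and 0.669 in monocytes. The share of thinned neutrophils with an Mt1 UMI was not above that of B cells, the background class, in either library. The difference between neutrophils and monocytes was not tested.

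Ratios on opposite sides of 1 in male and female cells, with neither interval holding 1, were found for 12 pairs of gene and class, and the difference between the sexes was not tested. In monocytes, male against female, they were 0.649 and 2.86 for Slc7a11, 0.345 and 1.43 for Hmox1, and 0.493 and 1.49 for Txnrd1. They were also 0.677 and 1.67 for Mt1, 0.787 and 1.63 for Gsr, and 0.608 and 1.37 for Prdx1. In macrophages they were 0.644 and 1.18 for Hmox1, 0.743 and 1.35 for Gclm, and 0.904 and 1.45 for Prdx1. In neutrophils Prdx1 was 1.67 in male and 0.712 in female cells, the latter on 170 diabetic and 56 normoglycemic UMIs. Mt1 was 2.22 in male and 0.638 in female alpha-beta T or NK cells. It was 0.148 in male and 11.9 in female B cells, where 3 cells of each library held most Mt1 UMIs.

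The 4 antibody capture features, which enter no comparison above, held 250351 UMIs in the diabetic and 700188 UMIs in the normoglycemic library. At least 20 such UMIs were found in 290 of 10496 diabetic and 1103 of 11280 normoglycemic barcodes. What the antibodies marked is not given in the sources used here, so they were not used to assign cells to mice.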

How the results depend on the processing

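The 5 higher and 13 lower pairs of member and class became 3 higher without the 8% deepest cells, 3 higher and 4 lower without cells holding 2 or more markers of another class, and 3 higher and 7 lower with cells thinned to 1000 UMIs. They became 2 higher and 7 lower at a fold of 2, 7 lower without cells with 2 or more neutrophil markers (chosen after seeing the data), and 6 higher and 5 lower in female cells only, Slc7a11 in monocytes and Gsr in macrophages (2.15) among the higher. Male cells only gave 5 higher and 17 lower, TMM 6 and 14, median-of-ratios scaling 6 and 15, and classes from clusters 4 and 13. Fewer cells or counts were left under the settings that remove cells or thin them. Among the 18 called pairs, 8 changed sign under 1 of these alternatives each, as did 36 of the 50 other pairs with UMIs under at least 1, such as Hmox1 in macrophages. The called log2 ratios that did so were Mt2 in alpha-beta T or NK cells with classes from clusters (-0.17), Slc7a11 there without cells holding 2 or more markers of another class (2.56), Mt1 in gamma-delta or type 17 T cells in male cells (-0.083), and Hmox1 there without cells with 2 or more neutrophil markers (0.64). In female cells they were Hmox1 in neutrophils (0.088) and in monocytes (0.51), Slc7a11 in monocytes (1.51) and Txnrd1 in monocytes (0.57). Within single neutrophil clusters, a setting also chosen after seeing the data, Hmox1 was 0.20 in cluster 0 and 0.69 in cluster 5. TMM for the other gene lists was added in the same way. The cause of these changes was not tested. Mt1 in neutrophils and Mt2 in macrophages were called under each of the 16 alternatives, from 1.98 to 3.69 and from 1.71 to 2.77. Hmox1 in neutrophils and in monocytes was called under 15 of 16, all but female cells only. Slc7a11 was called under 14 of 16 in neutrophils, 13 of 16 in macrophages and 7 of 16 in monocytes. Levels under about 10 CPM rest on few UMIs in the lymphoid classes, and with 1 pool per condition the effects of diabetes and of the pool cannot be told apart. No paired analysis was possible because each condition has 1 library.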
